A study of Mus musculus with 6 samples.

Results

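Nidogens, perlecan, agrin, the Fraser complex proteins and nephronectin are basement membrane proteins other than laminin and collagen IV. Their 8 genes (Nid1, Nid2, Hspg2, Agrn, Frem1, Frem2, Fras1 and Npnt) were found by gene name among the 36406 gene names of a mouse expression array, where they had 13 of 55681 probes. The set was chosen in part by the measured loss of the Frem1 signal after treatment, so the Frem1 values are a description and carry no test. The other 7 genes belong to the set by family, but the set was drawn up with results of the same contrast known.

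The arrays held RNA of primary myoblasts (cells that fuse into muscle fibres), sorted by flow cytometry from skeletal muscle of male C57BL/6 mice at 3 months of age. Both groups grew in the same serum-rich medium. The treated group (3 arrays) received TGFb, the growth factor that drives scar matrix in many tissues, for 4 days, and the untreated group (3 arrays) did not. The sources used here do not give the TGFb dose or isoform or the number of mice per culture. The labels call the samples of a group biological replicates, but the array names number untreated replicates 1 and 2 alike. Whether those arrays share a culture is not known; if so, 2 independent untreated cultures remain and the errors below are too small.

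A basement membrane is a thin sheet of matrix that surrounds each muscle fibre and the stem cells beneath it. Laminin and collagen IV form separate networks in it, nidogens bind to both, and the heparan sulfate proteoglycans perlecan (Hspg2) and agrin bind laminin, growth factors and the receptor dystroglycan. Nerve-derived agrin also acts through Lrp4 and the kinase MuSK to cluster acetylcholine receptors at the neuromuscular junction. Fras1, Frem2 and the secreted Frem1 form a complex below epithelial sheets that stabilises its members, and loss of it causes the blistering of Fraser syndrome. Nephronectin (Npnt) is a matrix ligand of integrin alpha8 beta1.

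What each probe reads matters here, because the probes of 1 gene gave unlike values. Each probe was 60 bases long, and positions below are transcript positions as the array annotation gives them, with mm9 coordinates. Frem1 was read by 1 probe at chr4:82543865-82543924 on the minus strand (transcript position 9213), Fras1 by 1 at chr5:97213218-97213277 on the plus strand (15318), Frem2 by 1 at chr3:53318005-53318064 on the minus strand (12143), and Nid2 by 1 at chr14:20630490-20630549 on the plus strand (4364). Npnt had probes at positions 1920 (chr3:132547399-132547458, minus strand) and 3518 (chr3:132545801-132545860). Hspg2 had probes at 13076 (chr4:137125445-137125504, plus strand) and 14023 (chr4:137126392-137126451). Agrn had probes at 3074 (chr4:155546878-155546937, minus strand) and 6766 (chr4:155539415-155539474). Nid1 had probes at 269, 4283 (chr13:13602780-13602839, plus strand) and 5938 (chr13:13604435-13604494). The Nid1 probe at 269 spans chr13:13530138-13555992, or 25855 bases of genome, so it crosses an exon junction. The Npnt probes lie 1598 bases apart in both transcript and genome, so no intron separates them, and the same holds for the Hspg2 probes (947 bases) and the later Nid1 probes (1655 bases). Coding boundaries are not annotated in the files, so coding or untranslated exon is not stated for any probe.

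Probes of the same gene gave unlike levels, so the earlier probe of each gene with several probes is printed from the scanner files. They are 5′ to 3′ in the sense direction, with no base in capitals, and each is free of stop codons in at least 1 sense frame.
Npnt 1920: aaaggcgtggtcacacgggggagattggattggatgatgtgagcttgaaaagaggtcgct
Nid1 269: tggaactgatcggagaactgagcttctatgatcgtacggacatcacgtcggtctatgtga
Hspg2 13076: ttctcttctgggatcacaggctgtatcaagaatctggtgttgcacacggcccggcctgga
Agrn 3074: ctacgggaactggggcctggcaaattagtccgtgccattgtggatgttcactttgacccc

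Levels are log2 processed intensities relative to the 75th percentile of all non-control spots on the same array, so 0 is the 75th percentile and 1 unit is a doubling. That percentile lay between 876 and 1569 intensity units, 51.8% to 56.6% of spots were well above background on each array, and no array had more than 77 saturated spots of 59305. The file headers date the scans to 2 days. Day 1 held TGFb replicate 1 with untreated replicates 1 and 2, and day 2 held TGFb replicates 2 and 3 with untreated replicate 3. Scan day separated the arrays along principal component 1 (72.4% of the variance), and group along component 2 (16.3%). The groups were therefore compared by limma in 2 fits, on the group alone and adjusted for scan day (called day-adjusted below), with Benjamini-Hochberg adjustment over all 21960 genes tested in each. Of the 10 myoblast markers, 8 passed the background test on all arrays and Msc on none. Summed intensity over the myoblast list, in units of the 75th percentile, was 454 to 877 on TGFb arrays and 508 to 849 on untreated arrays. Of the 10 endothelial markers, 4 passed it on all arrays and 5 (Emcn, Esam, Sox17, Tek and Tie1) on none, and their sum was lower on TGFb arrays (5.41 to 6.83) than on untreated arrays (8.36 to 8.90). The pericyte and smooth muscle sum overlapped between groups (83.4 to 451 against 92.6 to 379), as did the sums for fibroblasts (88.5 to 196 against 72.1 to 209), Schwann cells (2.56 to 4.34 against 2.17 to 3.23), macrophages (17.9 to 119 against 17.1 to 67.1) and epithelial cells (1.23 to 2.90 against 0.524 to 1.63). The macrophage markers Cd68 and Lyz2 and the fibroblast markers Dpt and Lum were on no array well above background, whereas 4 of 9 macrophage markers (Cd14, Csf1r, Itgam and Laptm5) and 6 of 10 fibroblast markers (Cd34, Col3a1, Ly6a, Pdgfra, Pi16 and Tcf4) were on all 6. Single markers moved within these sums. Of the myoblast markers, Des (-1.28, limma adjusted p = 0.0101) fell and Ncam1 (1.29, 0.0106) rose after day adjustment, each without overlap between groups. The pericyte marker Abcc9 differed by -2.63 for the group alone (limma adjusted p = 0.0149). After day adjustment the fibroblast marker Dcn (-2.57, limma adjusted p = 0.0164) and the endothelial marker Vwf (-1.30, 0.00640) fell. The pericyte marker Rgs5 (1.57, limma adjusted p = 0.0168), the epithelial markers Krt18 (1.98, 0.00494) and Krt19 (1.23, 0.0363), the Schwann cell marker Mbp (0.98, 0.0222) and the macrophage marker Laptm5 (1.00, 0.0337) rose. The part of these marker differences, the endothelial sum included, in the results below was not tested.

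**Figure D1:**
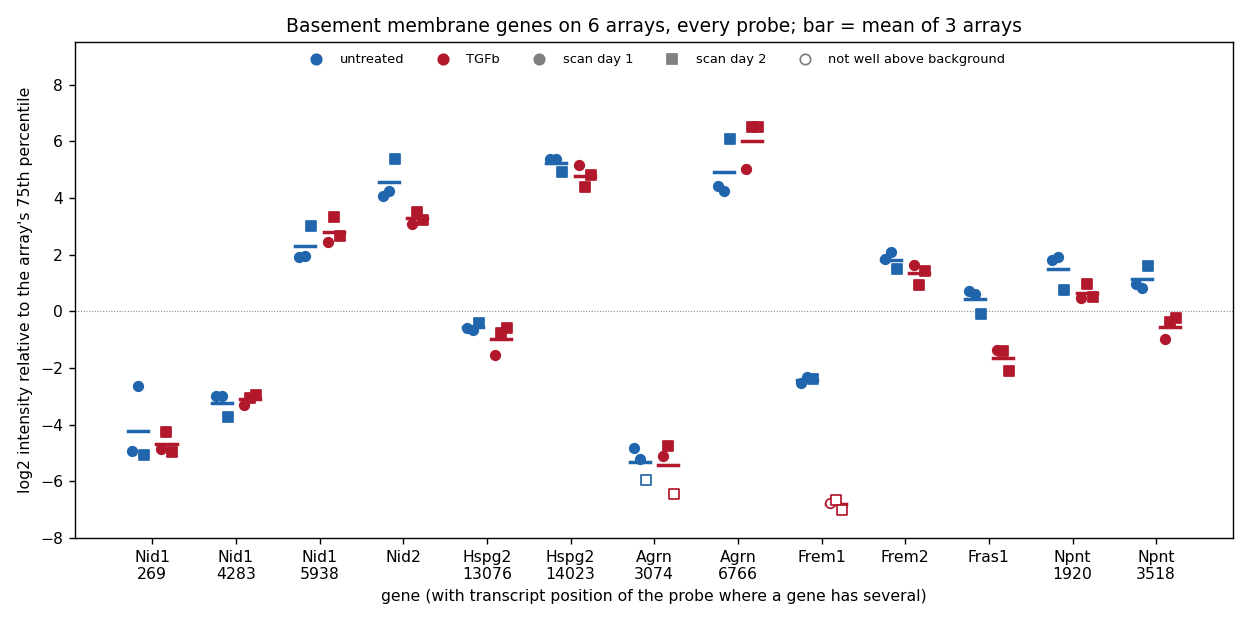
Log2 intensity relative to the array's 75th percentile for every probe of the 8 genes, with 3 untreated (blue) and 3 TGFb (red) arrays; bars are group means, circles and squares scan days 1 and 2, and open symbols spots not well above background. Frem1, Fras1, Nid2 and Npnt position 3518 have every TGFb array below every untreated array, while the other probes overlap.

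Among the Fraser complex genes, Frem1 and Fras1 were lower in TGFb-treated myoblasts than in untreated ones, and Frem2 overlapped between the groups. Frem1, which encodes the secreted member, read -2.55, -2.32 and -2.38 on untreated replicates 1, 2 and 3 and -6.76, -6.65 and -7.02 on TGFb replicates 1, 2 and 3. The Frem1 probe was well above background on all 3 untreated arrays and on 0 of 3 TGFb arrays, so treatment gives only a bound. In processed intensity, before scaling to the array's percentile, Frem1 read 150, 199 and 301 untreated against 8.72, 11.8 and 10.4 with TGFb. Set against the lowest signal well above background on each TGFb array, Frem1 was at least 7.19-fold lower after TGFb on the scale of processed intensities (2.85 log2 units). The measured means differed by -4.40 log2 units, with -4.33 within scan day 1 and -4.45 within day 2. In the authors' deposited table the Frem1 values were 8.19, 8.36 and 8.43 untreated and 6.65, 6.52 and 6.49 with TGFb, a difference of -1.77. With normexp background correction the difference was -1.69 (-1.66 after day adjustment). Both are smaller than the bound, which therefore does not hold under other background handling. Fewer cells that express a gene and less RNA per cell cannot be told apart in these bulk samples.

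Fras1, the large transmembrane protein of the complex, read 0.72, 0.62 and -0.08 on untreated replicates 1, 2 and 3. The TGFb replicates read -1.39, -1.41 and -2.11, all below the lowest untreated value, and within each group the lowest value came from a day 2 array. The difference was -2.05 ± 0.36 (SE, n = 3 per group, limma adjusted p = 0.0663) for the group alone, which missed the threshold of 0.05. After day adjustment Fras1 fell by 1.87 ± 0.24, or 3.65-fold (limma adjusted p = 0.0120), being -2.05 on day 1 alone and -1.68 on day 2 alone. That call was lost without TGFb replicate 1 (adjusted p = 0.0942) and without untreated replicate 1, 2 or 3 (0.0594, 0.0614 and 0.0960), with differences between -1.68 and -2.05.

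Frem2, the other transmembrane member, read 1.85, 2.10 and 1.49 untreated and 1.63, 0.94 and 1.43 with TGFb. The groups overlapped, since TGFb replicate 1 lay above untreated replicate 3. The Frem2 difference was -0.48 ± 0.32 for the group alone (limma adjusted p = 0.660) and -0.32 ± 0.20 after day adjustment (limma adjusted p = 0.351, 95% interval -0.82 to 0.17). It was -0.34 and -0.31 within scan days 1 and 2 and -0.55 and -0.46 within the slides that held both groups. With slide as a random block, where 4280 of 21960 genes passed, the Frem2 difference of -0.50 passed (limma adjusted p = 0.0418). With slide as a fixed block, where 790 genes passed, the Frem2 difference of -0.51 did not pass (limma adjusted p = 0.244).

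The genes known to act with the Fraser complex and nephronectin gave 7 tested genes of 9 listed, with Egfl6 and Frem3 too dim to test. In the day-adjusted fit 1 of these rose and 3 fell, against 4.6% and 5.54% of all genes tested, and for the group alone 0 passed, against 1.4%. The list median was -0.14 after day adjustment, against 0.04 over all genes. The list count was 1 without untreated replicate 3 and 2 without TGFb replicate 1 or untreated replicate 1 or 2.

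Grip1, the intracellular PDZ scaffold that carries Fras1 and Frem2 to the cell surface, read 0.96, 0.92 and 2.51 untreated and -0.36, 0.59 and -0.31 with TGFb. Grip1 fell by 1.83 ± 0.36 after day adjustment (limma adjusted p = 0.0365), and every TGFb array lay below the untreated ones. Grip2, its paralogue, read -1.71, -2.03 and -2.75 untreated and -3.57, -4.52 and -4.46 with TGFb. Grip2 fell by 1.72 ± 0.16 (limma adjusted p = 0.00482), again without overlap.

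Itga8, the integrin alpha chain that binds nephronectin, read -3.05, -2.99 and -2.92 on the untreated arrays, all well above background. Its TGFb values were -7.35, -4.82 and -6.60, and 1 of these 3 spots (replicate 2) was well above background. The fitted Itga8 difference of -3.56 ± 0.59 (limma adjusted p = 0.0238, day-adjusted) therefore rests in part on spots at background. Its partner chain Itgb1 differed by 0.50 ± 0.14 (limma adjusted p = 0.0884) and overlapped between groups. A dimmer Itgb1 probe, above background on all 6 arrays, rose by 1.00 ± 0.20 (limma adjusted p = 0.0444 over all probes).

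Gdnf, a growth factor whose expression in the embryonic kidney depends on nephronectin and integrin alpha8 beta1, moved the other way. Gdnf read -2.96, -3.13 and -1.63 untreated and -0.63, 0.29 and 0.52 with TGFb, every treated array above the untreated ones. Gdnf rose by 2.22 ± 0.17 after day adjustment (limma adjusted p = 0.00315). The scaffold Mpdz (-0.14 ± 0.21) and the matrix protein Vwa2 (-0.06 ± 0.20) did not pass.

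**Figure D2:**
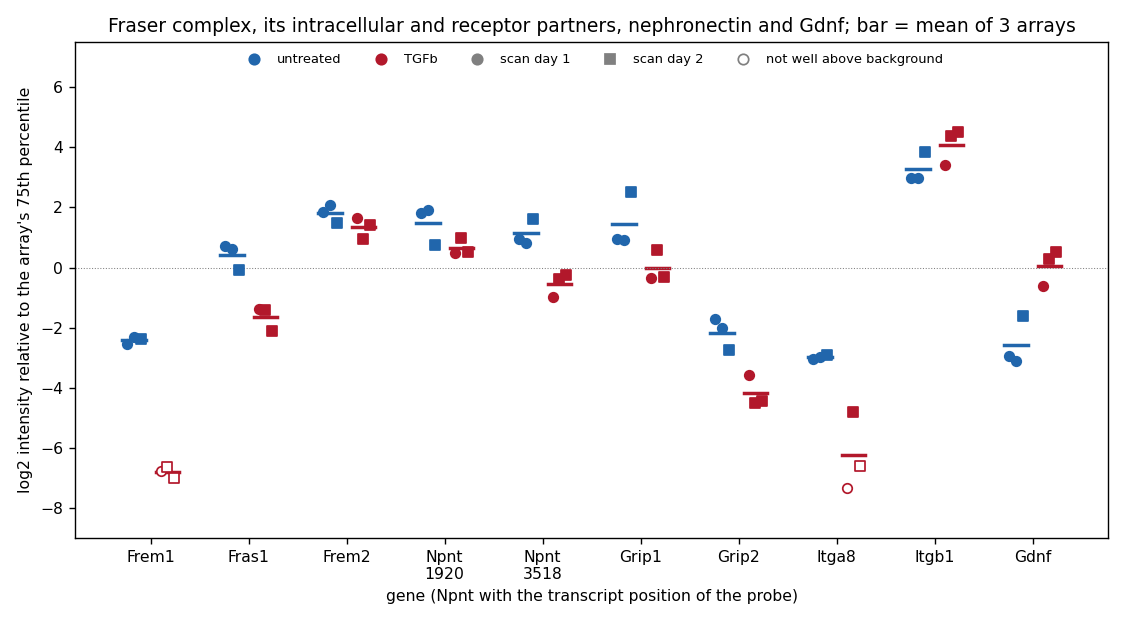
Log2 intensity relative to the array's 75th percentile for the Fraser complex genes, nephronectin, the scaffolds Grip1 and Grip2, integrin chains Itga8 and Itgb1, and Gdnf on 3 untreated (blue) and 3 TGFb (red) arrays; bars are group means, circles and squares scan days 1 and 2, open symbols not well above background. Fras1, Grip1, Grip2 and Itga8 lie lower on every TGFb array, Gdnf lies higher, and Frem2, Npnt position 1920 and Itgb1 overlap.

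The probes of nephronectin gave unlike answers. The probe at 1920, printed above and brighter on average, represents Npnt in the comparison of all genes. It read 1.81, 1.93 and 0.75 untreated and 0.48, 0.98 and 0.50 with TGFb, so untreated replicate 3 fell among the treated arrays. The difference was -0.84 ± 0.40 for the group alone (limma adjusted p = 0.518) and -0.70 ± 0.35 after day adjustment (limma adjusted p = 0.270), being -1.39 on day 1 alone and -0.01 on day 2 alone. Within the slides that held both groups it was 0.23 and -1.45. The probe at 3518 read 0.96, 0.83 and 1.62 untreated and -0.98, -0.40 and -0.25 with TGFb, with no overlap. Fitted over all 30154 probes tested, its difference was -1.68 ± 0.36 for the group alone (limma adjusted p = 0.123) and -1.91 ± 0.15 after day adjustment (limma adjusted p = 0.00415), being -1.88 on day 1 alone and -1.94 on day 2 alone. With the mean of both probes in place of the brighter one, Npnt fell by 1.31 ± 0.20 after day adjustment (limma adjusted p = 0.0177). Between scan days the probe at 3518 was higher on day 2 by 0.69 ± 0.15 (limma adjusted p = 0.0136 over all probes), whereas the probe at 1920 read -0.43 ± 0.35 (limma adjusted p = 0.351) and did not pass.

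Of the nidogens, which link the laminin and collagen IV networks, Nid2 was lower on every TGFb array and Nid1 overlapped between the groups. Nid2 read 4.08, 4.24 and 5.37 on untreated replicates 1, 2 and 3 and 3.09, 3.52 and 3.23 on the TGFb replicates. No TGFb value reached the lowest untreated value, and untreated replicate 3 stood apart above the others. The Nid2 difference was -1.29 ± 0.41 for the group alone (limma adjusted p = 0.288). Adjusted for scan day, Nid2 fell by 1.54 ± 0.26, or 2.90-fold (limma adjusted p = 0.0240), being -1.07 on day 1 alone and -2.00 on day 2 alone. The Nid2 call was lost without TGFb replicate 2 (adjusted p = 0.0650), without untreated replicate 1, 2 or 3 (0.0696, 0.0923 and 0.137), and with dim probes also tested (0.0515).

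Nid1 read 1.93, 1.96 and 3.01 untreated and 2.45, 3.33 and 2.66 with TGFb at its brightest probe, position 5938, and the groups overlapped. Its difference was 0.52 ± 0.42 for the group alone (limma adjusted p = 0.728) and 0.25 ± 0.25 after day adjustment (limma adjusted p = 0.571, 95% interval -0.38 to 0.87). The day-adjusted difference was -0.01 without TGFb replicate 1, so even its sign rests on that array. The Nid1 probe at 4283 gave 0.21 ± 0.27 after day adjustment, with values between -3.75 and -2.95 on the 6 arrays. At the junction-crossing probe, position 269, untreated replicate 2 read -2.63 while the other 5 arrays lay between -5.09 and -4.25. That single array sets the day 1 difference of -1.09 at this probe, whereas day 2 gave 0.47. No Nid1 probe of the 3 passed in either fit. The difference between the nidogens was not tested.

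Perlecan (Hspg2), a large heparan sulfate proteoglycan, overlapped between the groups. Its probe at 14023 read 5.38, 5.39 and 4.91 untreated and 5.15, 4.39 and 4.80 with TGFb. The Hspg2 difference was -0.45 ± 0.32 for the group alone (limma adjusted p = 0.681) and -0.28 ± 0.17 after day adjustment (limma adjusted p = 0.357, 95% interval -0.71 to 0.15). The probe at 13076 read -0.58, -0.65 and -0.42 untreated and -1.56, -0.78 and -0.60 with TGFb, where TGFb replicate 1 stood low. Its difference was -0.60 ± 0.21 after day adjustment (limma adjusted p = 0.148 over all probes), in the same direction.

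Agrin levels separated the scan days, and the groups overlapped across days. Its probe at 6766 read 4.42, 4.26 and 6.07 on untreated replicates 1, 2 and 3 and 5.03, 6.50 and 6.50 on the TGFb replicates. The 3 arrays of day 2 were all above the 3 of day 1, whatever the group. Within each day every TGFb array lay above every untreated array. The treatment difference was 1.09 ± 0.65 for the group alone (limma adjusted p = 0.621) and 0.56 ± 0.15 after day adjustment (limma adjusted p = 0.0806), being 0.69 on day 1 alone and 0.43 on day 2 alone. The day-adjusted Agrn difference passed when backgrounds were corrected by normexp (0.63, limma adjusted p = 0.0376) and in the authors' deposited table (0.71, limma adjusted p = 0.0245). It was smaller with median scaling (0.37, limma adjusted p = 0.507) and with the mean of the gene's probes (0.36, limma adjusted p = 0.452), and its adjusted p was 0.18 with dim probes also tested. Its probe at 3074 was well above background on 2 of 3 arrays in each group, with values between -6.45 and -4.75, too dim to read a difference.

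Frem1 entered the set for its fall, so it is left out of the counts here. Of the other 7 genes, 0 passed for the group alone, where 1.4% of all genes tested passed. In the day-adjusted fit 2 of 7 fell (Fras1 and Nid2) and 0 rose, against 5.54% and 4.6% of all genes. All TGFb arrays lay below all untreated arrays for 2 of 7, Fras1 and Nid2, against 9.52% of genes. They lay above them for 0 of 7, against 8.44%. The median difference over the 7 genes was -0.48 for the group alone and -0.32 after day adjustment, against 0.05 and 0.04 over all genes. The set was drawn up with results of the same contrast known, so nothing is read from these counts. Neither the Fras1 nor the Nid2 call remained without untreated replicate 1, 2 or 3.

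**Figure D3:**
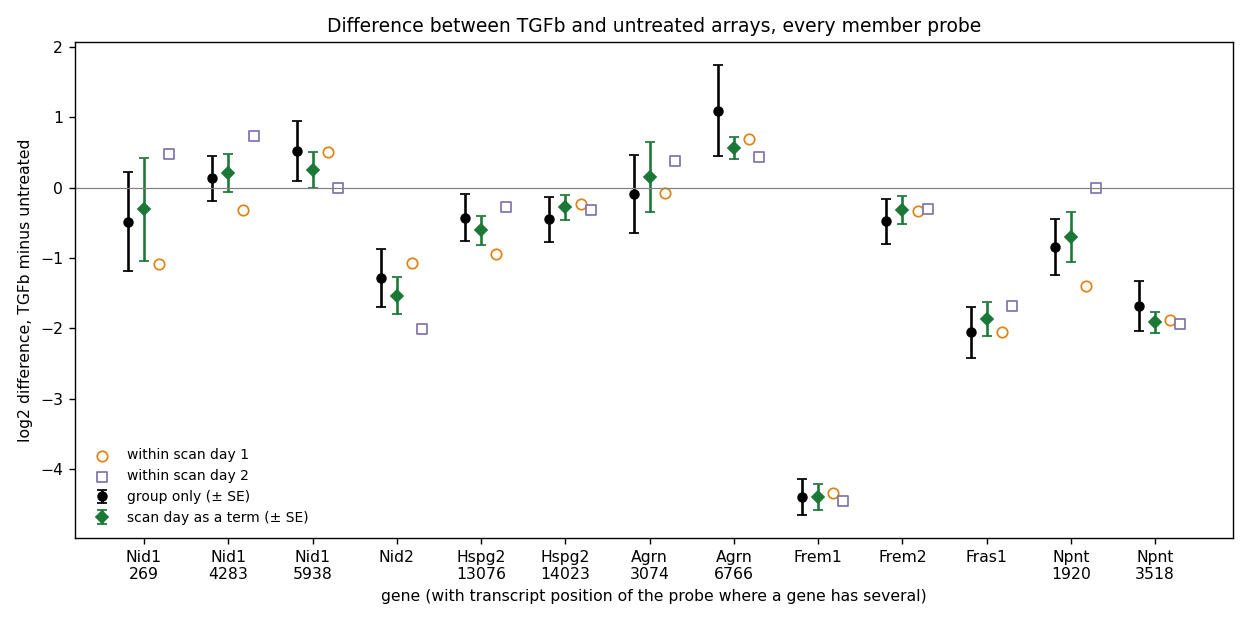
Log2 difference, TGFb minus untreated, for every probe of the 8 genes: black circles with the group alone, green diamonds after day adjustment (bars are SE over 3 arrays per group), and open symbols within each scan day. Fras1, Frem1, Frem2, Nid2, both Hspg2 probes and Npnt position 3518 lie below 0 within both days, and Npnt position 1920 is near 0 within day 2. The Frem1 points are measured differences. Their bound of at least 7.19-fold applies to processed intensities and does not hold under other background handling.

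The difference between scan days was no part of how the genes were chosen. Of the 8 genes, 3 differed between scan days with the group as a term, against 55.5% of all genes tested. Agrn was higher on day 2 by 1.59 ± 0.15 (limma adjusted p = 0.00118), with 1.46 within TGFb arrays and 1.73 within untreated arrays. Nid1 was higher by 0.80 ± 0.25 (limma adjusted p = 0.0395) and Hspg2 lower by 0.51 ± 0.17 (limma adjusted p = 0.0495). Nid2 (0.75 ± 0.26), Fras1 (-0.56 ± 0.24), Frem2 (-0.46 ± 0.20) and Npnt at 1920 (-0.43 ± 0.35) did not pass, and Frem1 differed by 0.05 within the untreated arrays, where it was measured.

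The other probes of Agrn, Nid1 and Hspg2 did not pass between scan days, whereas Npnt at 3518 did, as given above. The dim Agrn probe at 3074 read -0.72 ± 0.49 (limma adjusted p = 0.265 over all probes). Nid1 read -0.23 ± 0.27 at 4283 (limma adjusted p = 0.50) and -0.53 ± 0.73 at 269 (limma adjusted p = 0.572), and Hspg2 read 0.53 ± 0.21 at 13076 (limma adjusted p = 0.0795). Their signs were opposite to those of the brighter probes, but within errors that do not settle a direction. The probes of Agrn, Nid1 and Npnt that were higher on day 2 held 21 (Agrn 6766), 21 (Nid1 5938) and 24 (Npnt 3518) G or C bases of 60, and those with a negative value that did not pass held 33 (Agrn 3074), 27 and 29 (Nid1 4283 and 269) and 31 (Npnt 1920). Both Hspg2 probes held 33. Over 30153 probes the scan-day difference fell with G and C content (Pearson r = -0.377, Spearman rho = -0.455, across probes that share the same 6 arrays), while the day-adjusted treatment difference did not follow it (r = 0.00699, rho = -0.00197). The median scan-day difference was 0.67 over the 9763 probes with 35 to under 40% G and C and -0.85 over the 3531 probes with 55% or more. Over the 13 probes described here the scan-day r was -0.522 and rho -0.545. The part of base composition in any single value was not tested.

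**Figure D4:**
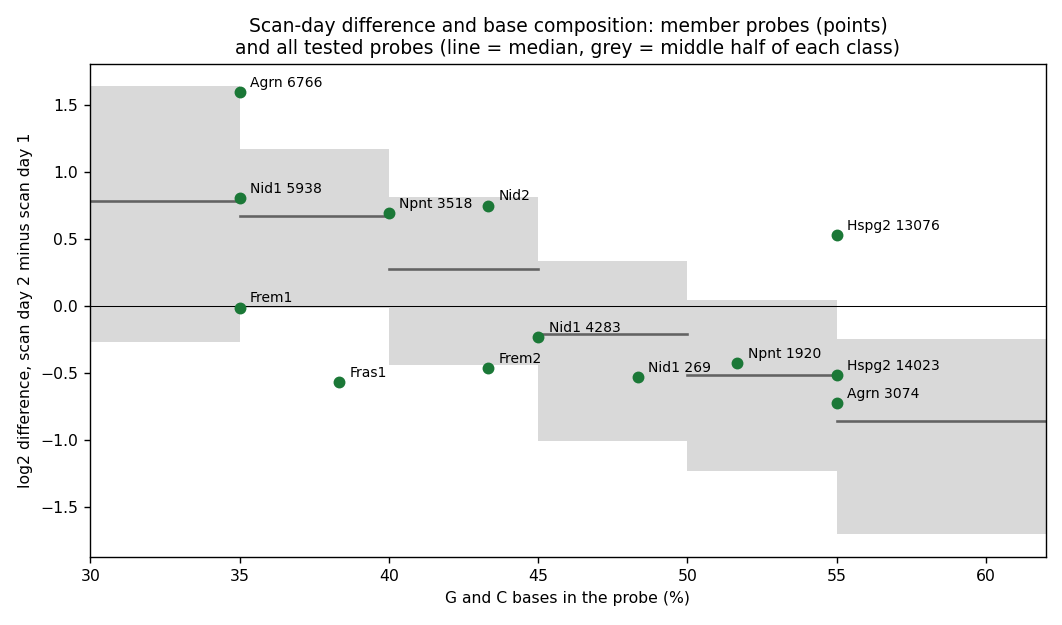
Log2 difference between scan days (day 2 minus day 1, group as a term) against the percent of G and C bases in the probe for the 13 probes of the 8 genes (points), with the median and the middle 50% of all tested probes per class of composition (line and grey). Class medians run from 0.78 below 35% to -0.85 at 55% or more; Agrn 6766 and Hspg2 13076 lie above the grey band of their class, Fras1 below it, Frem2 just below it and Frem1 at its lower edge.

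The wider pathways of these genes were counted from lists of partners, of which 100 of 123 genes were tested. For the group alone 4 rose and 1 fell, or 5% against 1.4% of all genes, and after day adjustment 21 rose and 11 fell, or 32% against 10.1% of all genes. These lists were drawn up with earlier results known, so the shares are not independent support. The count of 32 was 9 without untreated replicate 3 and 13, 15 and 15 without TGFb replicate 1, untreated replicate 1 and untreated replicate 2. The count of 5 for the group alone ranged from 0 to 4 with 1 array left out and was 0 without TGFb replicate 2, untreated replicate 1 or untreated replicate 2. Without one of the same 4 arrays, the counts given below for agrin signalling (4), other matrix proteins (6), receptors (6), heparan sulfate (4) and proteases (5) dropped to 1 or 2, 2 to 4, 2 or 3, 1 or 2, and 2 or 3. Differences below are day-adjusted.

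Around agrin, 11 of 12 listed genes were tested; 1 rose and 3 fell, and the median was -0.46. Colq, the collagen tail that anchors acetylcholinesterase to perlecan in the synaptic basement membrane, read 1.18, 1.00 and 1.86 untreated and -2.55, -2.08 and -1.56 with TGFb. Colq fell by 3.66 ± 0.20 (limma adjusted p = 0.00188), with -3.64 and -3.68 within the days, and passed for the group alone too (limma adjusted p = 0.0204). A dimmer Colq probe, above background on 4 arrays, read -1.84 ± 0.70 (limma adjusted p = 0.18 over all probes) and did not pass. Prss12, the protease neurotrypsin that cleaves agrin, read -2.95, -3.05 and -2.49 untreated and -0.96, -0.32 and -1.01 with TGFb. Prss12 rose by 1.93 ± 0.23 (limma adjusted p = 0.00939) and passed for the group alone (limma adjusted p = 0.0481). The fetal acetylcholine receptor subunit Chrng fell by 1.14 ± 0.18 (limma adjusted p = 0.0205) and the delta subunit Chrnd by 0.86 ± 0.18 (limma adjusted p = 0.0443). The agrin receptor Lrp4 (-0.29 ± 0.16), the kinase Musk (-0.14 ± 0.15), the clustering protein Rapsn (-0.23 ± 0.23) and the MuSK activator Dok7 (-0.64 ± 0.14, limma adjusted p = 0.0531) did not pass.

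Of the networks that nidogens join, 15 of 17 laminin and collagen IV chains were tested; 2 rose and 2 fell, with a median of -0.12. Lamb1 rose by 1.00 ± 0.16 (limma adjusted p = 0.0201) and Lamb3 by 0.98 ± 0.18 (limma adjusted p = 0.0313), while Lamb2 fell by 0.81 ± 0.15 (limma adjusted p = 0.0290) and Lamc3 by 0.96 ± 0.17 (limma adjusted p = 0.0293). Col4a1 (-0.25 ± 0.15) and Col4a2 (-0.12 ± 0.15), the common collagen IV chains, and Lamc1 (-0.52 ± 0.15), the laminin chain to which nidogens bind, did not pass. These 4 laminin calls were the list's only ones and none remained when TGFb replicate 1 or any untreated array was left out.

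Among other basement membrane and associated matrix proteins, 15 of 22 were tested; 6 rose and 0 fell, with a median of 0.72. Smoc2, a calcium-binding matricellular protein, read between -4.10 and -3.96 untreated and between 2.24 and 2.71 with TGFb. Smoc2 rose by 6.53 ± 0.19 (limma adjusted p = 0.00149). Fbln2, a fibulin that binds nidogens and perlecan, rose by 2.63 ± 0.23 (limma adjusted p = 0.00407). Col18a1, the collagen that holds endostatin, rose by 1.62 ± 0.15 (limma adjusted p = 0.00487).

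Of the 18 receptor genes, 17 were tested; 3 rose and 3 fell, with a median of 0.23. Itgb3, an integrin beta chain, rose by 2.83 ± 0.16 (limma adjusted p = 0.00188), and Itgb4, the laminin-binding beta chain of hemidesmosomes, rose by 1.40 ± 0.15 (limma adjusted p = 0.00700). The laminin receptor Bcam fell by 2.61 ± 0.19 (limma adjusted p = 0.00272). Dag1, which encodes the dystroglycan that binds laminin, perlecan and agrin, fell by 0.92 ± 0.14 (limma adjusted p = 0.0188).

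Of 26 genes for making and remodelling heparan sulfate, the sugar chains of perlecan and agrin, 21 were tested; 3 rose and 1 fell, with a median of 0.20. Extl1, an exostosin-like glycosyltransferase, fell by 1.85 ± 0.14 (limma adjusted p = 0.00289). The sulfotransferase Hs3st3a1 rose by 1.99 ± 0.17 (limma adjusted p = 0.00398), and Sulf1, which removes 6-O-sulfate outside the cell, by 0.86 ± 0.14 (limma adjusted p = 0.0237).

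Of 23 proteases and inhibitors, 17 were tested; 5 rose and 0 fell, with a median of 0.50. Timp3, a matrix-bound metalloproteinase inhibitor, rose by 4.45 ± 0.14 (limma adjusted p = 0.00149) and Timp1 by 2.39 ± 0.15 (limma adjusted p = 0.00199). Bmp1, a procollagen proteinase, rose by 1.72 ± 0.16 (limma adjusted p = 0.00494). The metalloproteinases Mmp2 (0.19 ± 0.22), Mmp9 (0.24 ± 0.15) and Mmp14 (0.60 ± 0.20) did not pass.

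**Figure D5:**
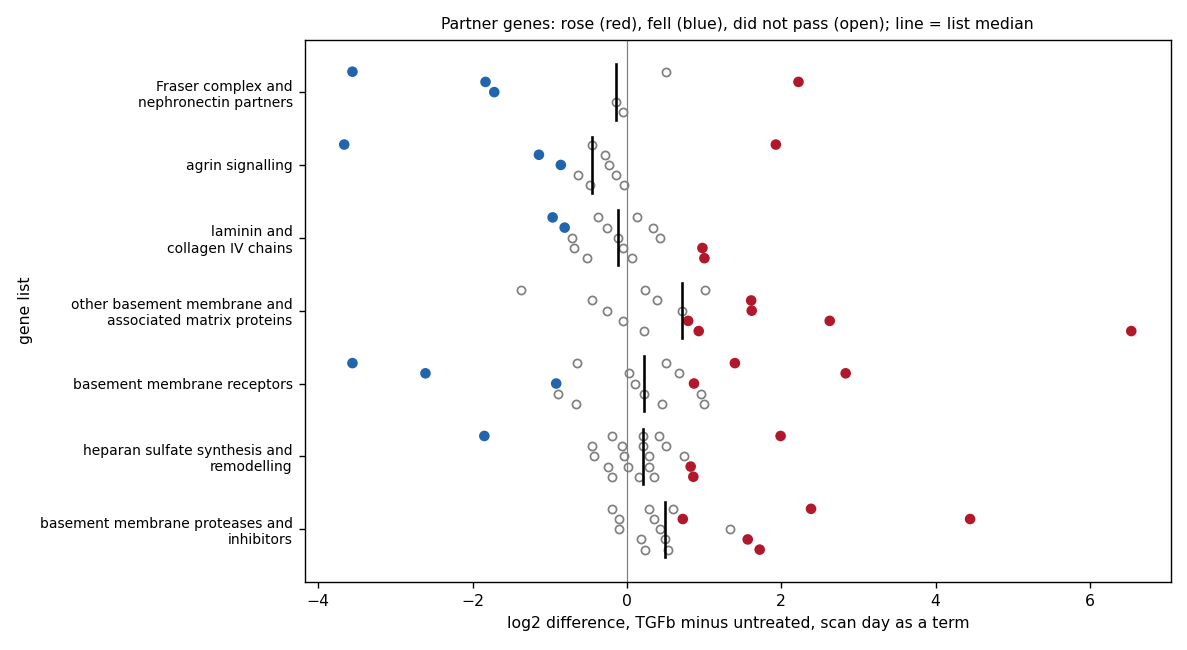
Log2 difference, TGFb minus untreated after day adjustment, for each tested gene of the 7 partner lists; red rose, blue fell, open did not pass at an adjusted p of 0.05, and the vertical bar is the list median. Medians run from -0.46 for agrin signalling to 0.72 for other basement membrane and associated matrix proteins, and Smoc2 at 6.53 is the farthest point.

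The 3 genes closest to each member in centred profile over the 6 arrays were named by root mean square difference in log2 units. Mef2c was closest to Fras1 at 0.0980, followed by Grtp1 and Rbp7 at 0.201 and 0.202. Lmcd1 (0.130), Dock10 (0.141) and Tspan15 (0.146) were closest to Nid2. For Frem1 these were Vipr2 (0.284), Ckmt2 (0.323) and Meg3 (0.344). For Npnt at 1920 they were Adamts5 (0.146), Serpina11 (0.200) and Cdc45 (0.207). The profiles of Agrn (Iqsec2, Klhl26 and Ammecr1l, 0.0689 to 0.0725), Nid1 (Mina, Washc4 and Fancl, 0.0539 to 0.0703), Hspg2 (Hdgfl2, Chmp1a and Clpb, 0.0339 to 0.0528) and Frem2 (Upf1, Hdgfl2 and Phf5a, 0.0662 to 0.0788) had closer neighbours in these units. The members' own SD over the arrays ran from 0.38 (Hspg2) to 2.41 (Frem1), so these distances do not rank likeness between members. The Frem1 profile also rests on TGFb spots that were not well above background. With 6 arrays and a shared scan-day difference, likeness of profile is a description only.

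Promoter windows of 300 bases (250 before and 50 after the start) were given by RefSeq (GRCm38.p6) for 6 of the 8 genes, 9 windows in all; Fras1 and Nid2 were not among them. The Frem1 windows are printed because its signal was lost, with each CACCTG or its reverse complement CAGGTG, an E-box, in capitals. The first lies at chr4:83021053-83021352 and the second at chr4:83052117-83052416, both on the minus strand.
Frem1 window 83021053: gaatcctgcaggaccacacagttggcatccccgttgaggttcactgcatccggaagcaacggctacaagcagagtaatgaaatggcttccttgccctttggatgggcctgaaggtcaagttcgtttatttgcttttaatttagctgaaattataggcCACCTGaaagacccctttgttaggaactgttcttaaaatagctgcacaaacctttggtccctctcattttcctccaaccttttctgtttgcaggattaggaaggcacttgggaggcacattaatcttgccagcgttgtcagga
Frem1 window 83052117: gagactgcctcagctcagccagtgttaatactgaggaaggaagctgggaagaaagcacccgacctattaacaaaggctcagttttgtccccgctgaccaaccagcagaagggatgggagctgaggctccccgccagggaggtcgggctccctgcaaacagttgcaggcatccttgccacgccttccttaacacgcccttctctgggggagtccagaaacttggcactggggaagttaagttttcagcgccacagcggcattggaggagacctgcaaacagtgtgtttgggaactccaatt
The first Frem1 window held 1 CACCTG and the second held none; 1 of the Npnt windows (chr3:132949765-132950064, minus strand) held 3. Over both strands CACCTG was in 2 of the 9 windows, against 20.2% of 32851 promoters of the same length. The SMAD-type motif CAGAC was in 0 of 9, against 49.6%, and the E-box CAGCTG in 0 of 9, against 16.3%. A match is a match of letters, and its absence says only that the letters are not in these windows.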

How the data were processed

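RNA from 6 samples of primary myoblasts was measured on 1-colour (Cy3) Agilent arrays. The authors deposited 1 scanner file per array with spot intensities, which per the file headers came from Agilent Feature Extraction 10.7.3.1. They also deposited a table of normalized log2 values, used as an alternative; each column (median 6.99 to 7.00) correlated best with its own array's signal (r of 0.992 to 0.993), and its normalization and background treatment are not given in the sources used here.

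Control spots and outlier spots (176 to 365 per array) were left out. Log2 processed intensity minus the array's 75th percentile was averaged over spots of a probe. A probe was tested if well above background on at least 3 of 6 arrays, and a gene was its probe with the highest mean. RefSeq (GRCm38.p6) held the names of 26300 of 55681 probes, of which 2839 were changed. Groups were compared with limma 3.58.1 (R 4.3.3; lmFit, eBayes, Benjamini-Hochberg, threshold 0.05) on the group alone, checked on simulated data, and with scan day as a term. A bound takes the higher of the probe's signal and the lowest signal well above background on each dim array.

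Members and lists were chosen with earlier results of these data known. From each partner list the 3 genes with the smallest p in the scan-day fit were named, and others named beside them were chosen after their values were seen. The alternatives were slide or replicate number as a block, normexp, quantile and median scaling, the authors' table, other probe filters and the mean of a gene's probes. Others counted untreated replicates 1 and 2 as 1 sample or left out each array. Deviations of same-numbered arrays of the groups correlated at 0.808, -0.716 and 0.691. The sign followed scan day: same-day pairs gave 0.691 to 0.862, and pairs across days -0.878 to -0.619. The correlations therefore cannot show whether the numbers pair cultures, and the numbers were not taken to pair arrays. The number of arrays limits the precision.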

Additional observations from a re-analysis of the deposited data

How the results depend on the processing

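For the group alone, 307 genes, 1 of the 8 basement membrane genes and 5 partner genes passed. With scan day as a term these were 2227, 3 and 32, with slide as a fixed block 790, 1 and 16, and with slide as a random block 4280, 4 (Frem2 was added, adjusted p = 0.0418) and 42. The replicate block left 2, 0 and 1 (2955 genes at an unadjusted p under 0.05). Median scaling gave 89 genes and 3 partners, and the authors' values gave 3280, 3 and 41. Requiring signal on all arrays removed Frem1, so 0 of the 8 passed. The other counts of the 8 genes include Frem1, which carries no test, so nothing is read from them. Counting untreated replicates 1 and 2 as 1 sample left 0, 0 and 0 (1459 genes at an unadjusted p under 0.05, limma). With 1 array left out the counts ranged from 0 to 196, 0 to 1 and 0 to 4; the 3 settings with 0 genes had 1467 to 1640 at an unadjusted p under 0.05. With scan day as a term and 1 array left out they ranged from 329 to 3320, 1 to 3 and 9 to 40. In that fit the authors' values gave 3345 genes, and testing dim probes too gave 1302 genes and 18 partners. The Nid1 difference in that fit ranged from -0.012 to 0.51 with 1 array left out, the lowest without TGFb replicate 1, while the other 7 genes kept their direction in every alternative that tested them. Testing dim probes moved the median difference of all genes from 0.05 to 0.20; no scaling moved it by over 0.1. Where signal is near background, as for Frem1 and Itga8 with TGFb, only the bound on the scale of processed intensities or the number of measured arrays is informative. The causes of these changes were not tested.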
